A study of Mus musculus with 10 samples.

Results

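The 5 mouse Serpina1 paralogs, Serpina1a to Serpina1e, were examined in fetal liver lacking the imprinted microRNA gene Mir483. They are the 5 rows of the count table whose Ensembl identifiers belong to these genes, out of 55401 gene rows in all, and each of the 5 was counted in all 10 libraries and passed the filter on low counts. Liver polyA RNA was sequenced from female E18.5 fetuses, in 5 Mir483Pat-KO fetuses and 5 wild-type (WT) littermates, all on a C57BL/6J background. Mir483Pat-KO fetuses inherited from the father an allele deleted for Mir483, made with Cre recombinase in embryonic stem cells of the C57BL/6N strain. The deletion is constitutive, so every cell of the fetus carries it and not hepatocytes alone. The comparison asks what this loss does to the liver transcriptome.

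Serpina1 genes encode alpha-1-antitrypsin, a serine protease inhibitor that hepatocytes make in large amounts and secrete into plasma. The protein offers a loop, the reactive centre loop, as bait. The protease cuts it after the residue named P1, and the loop then snaps into the body of the inhibitor and traps the enzyme. The best known target is neutrophil elastase, and the residue at P1 largely sets which proteases are caught. Humans carry a single such gene, SERPINA1, whereas the mouse gene has been duplicated. Part of each protein is secreted with help from a cargo receptor, misfolded protein is degraded from the endoplasmic reticulum, and complexes with protease are cleared by receptors on liver cells.

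The paralogs are close copies that differ at the bait. Their aligned coding sequences were identical at 96.3% to 98.5% of bases and the encoded proteins at 92.8% to 97.3% of residues, with Serpina1a and Serpina1c the closest pair. By residues Serpina1b and Serpina1e were the most distant, and by bases they tied with Serpina1d and Serpina1e. The stretch of coding sequence around P1 is given here because it is where the encoded inhibitors part. Each line holds 60 coding bases, 5′ to 3′, starting at the hinge of the loop, and the capitals mark the P1 codon.
Serpina1a: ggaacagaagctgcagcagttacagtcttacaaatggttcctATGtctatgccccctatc
Serpina1b: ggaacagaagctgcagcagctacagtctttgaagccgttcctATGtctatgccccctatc
Serpina1c: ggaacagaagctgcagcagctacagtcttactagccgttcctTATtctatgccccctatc
Serpina1d: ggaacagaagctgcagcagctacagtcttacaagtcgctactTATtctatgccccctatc
Serpina1e: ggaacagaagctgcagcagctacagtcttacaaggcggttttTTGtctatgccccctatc

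The codon at P1 reads methionine in Serpina1a and Serpina1b, tyrosine in Serpina1c and Serpina1d, and leucine in Serpina1e, and serine follows it in all 5. Methionine is also the P1 residue of the human protein. The windows lie in the last exon of each transcript, on the minus strand of chromosome 12 (GRCm38, GENCODE M21). They span chr12:103853771-103853830 in Serpina1a, chr12:103728338-103728397 in Serpina1b, chr12:103895108-103895167 in Serpina1c, chr12:103763776-103763835 in Serpina1d and chr12:103947114-103947173 in Serpina1e.

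All 5 genes lie on the minus strand within 230.8 kb, inside the larger cluster of clade A serpin genes. In map order they are Serpina1b (ENSMUSG00000071178, chr12:103728156-103830373), Serpina1d (ENSMUSG00000071177, chr12:103763594-103773592), Serpina1a (ENSMUSG00000066366, chr12:103853589-103863562), Serpina1c (ENSMUSG00000079015, chr12:103894926-103904887) and Serpina1e (ENSMUSG00000072849, chr12:103946931-103958975). The annotated Serpina1b gene encloses Serpina1d. Between the members lie 6 unprocessed pseudogenes, of which Gm8893 alone had counts, 208 to 374 per library. B430119L08Rik, an antisense gene on the plus strand that covers 31.52% of the exonic bases of Serpina1c, had 24 to 92 counts.

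The likeness of the copies limits what reads can tell. Of all 50-base windows in the transcripts, 64.4% in Serpina1e and 64.2% in Serpina1b occurred in no other gene, against 49.1% in Serpina1d, 32.6% in Serpina1a and 20.7% in Serpina1c. Serpina1a shared 57.5% of its windows with Serpina1c, and Serpina1c shared 69.4% of its own with Serpina1a. Reads were sequenced in pairs of 50 bases. When both ends of a 200-base fragment were compared as a pair, 84.4% of positions in Serpina1e were unique, 78.2% in Serpina1b, 71.3% in Serpina1d, 48.0% in Serpina1a and 37.3% in Serpina1c. The study's methods name STAR for both alignment and gene counts. The gene counting built into STAR takes reads that align to 1 place only, but the settings used are not given, so the split between members, and that of Serpina1a and Serpina1c most of all, is uncertain.

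The promoters are near copies as well. In the RefSeq promoter sequences (GRCm38.p6), a 90-base window beginning at the first motif below was equal at 85 to 90 of 90 positions in each pair of genes, and was the same in Serpina1b and Serpina1e. It is shown because the members share it almost base for base, and the capitals mark TGTTTGC, letters like those bound by FOXA factors of the liver, and TTAAATA, which resembles a TATA element. Each line is 5′ to 3′ on the minus strand.
Serpina1a: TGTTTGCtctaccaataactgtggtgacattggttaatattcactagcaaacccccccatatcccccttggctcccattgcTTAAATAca
Serpina1b: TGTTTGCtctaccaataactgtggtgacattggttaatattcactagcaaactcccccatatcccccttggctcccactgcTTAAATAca
Serpina1c: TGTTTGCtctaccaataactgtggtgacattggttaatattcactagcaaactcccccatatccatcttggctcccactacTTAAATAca
Serpina1d: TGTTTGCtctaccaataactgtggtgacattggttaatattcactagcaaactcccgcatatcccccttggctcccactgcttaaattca
Serpina1e: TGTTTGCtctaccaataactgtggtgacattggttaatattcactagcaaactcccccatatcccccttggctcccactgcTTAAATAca

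The windows lie at chr12:103863583-103863672, chr12:103738158-103738247, chr12:103904920-103905009, chr12:103773592-103773681 and chr12:103956918-103957007 for Serpina1a to Serpina1e. Searched on both strands, the FOXA-like letters occurred in 5.07% of 32851 promoter sequences of the same table and the TATA-like letters in 4.51%. The FOXA-like letters were found in all 5 members and the TATA-like letters in 4, the exception being Serpina1d. The motifs did not overlap. Relative to the RefSeq transcription start, the TATA-like letters began at −29 in Serpina1e and at 22 to 28 in Serpina1a, Serpina1b and Serpina1c, so the annotated starts of the copies do not fall at matching bases.

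The deleted gene gives rise to 2 mature microRNAs (RefSeq, GRCm38.p6), shown with the seed, bases 2 to 8, in capitals.
mmu-miR-483-3p: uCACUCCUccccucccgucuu
mmu-miR-483-5p: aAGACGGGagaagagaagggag

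Neither seed had a 7-base match, AGGAGTG or CCCGTCT, in the annotated 3′ UTRs of the paralogs, the longest of which are 86 to 87 bases.

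Total counts per library were 10831350 to 14765880, with 20587 to 21751 genes detected. Mir483 itself had 10 to 22 counts in the WT libraries and 0 in every Mir483Pat-KO library. No library repeated another of its group, since all 20 pairs from the same group stood further apart than counting alone allows (chi-square at least 4.86 times its degrees of freedom). Of 14098 genes tested, 731 passed an adjusted p of 0.05 (edgeR quasi-likelihood F-test, Benjamini-Hochberg), or 5.19%. Identification numbers in the labels fall into a lower range, with 4 WT and 2 Mir483Pat-KO fetuses, and an upper range, with 1 WT and 3 Mir483Pat-KO fetuses. What a range marks is not stated, and library index numbers do not overlap between the genotypes, so index order and genotype cannot be told apart.

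Serpina1 transcripts were abundant in WT liver and Serpina1e dominated them. Levels are given as counts per 1000000 counts of the library (CPM), with the library size scaled by the trimmed mean of M-values (TMM), and differences as log2 fold changes of Mir483Pat-KO over WT. The 5 genes together took 1.19% to 1.47% of all counts in WT libraries and 1.07% to 1.25% in Mir483Pat-KO libraries. None of the 5 passed the edgeR test for a change with genotype. The fitted changes were −15.2% for Serpina1d, −15.7% for Serpina1e, −2.22% for Serpina1b, −2.09% for Serpina1c and 2.33% for Serpina1a. Serpina1d and Serpina1e had an unadjusted p under 0.05, as did 22.2% of all genes tested.

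Serpina1e, the leucine form, stood at 9613, 8013, 7905, 7730 and 8280 CPM in WT replicates 1 to 5 and at 7584, 6891, 7957, 6356 and 6222 CPM in Mir483Pat-KO replicates 1 to 5. WT replicate 1 was the highest of all libraries, Mir483Pat-KO replicate 3 lay among the WT values, and the other 4 Mir483Pat-KO libraries lay below every WT library. The means were 8308 ± 756 and 7002 ± 756 CPM (SD, n = 5 per group). The log2 fold change was −0.25 (standard error 0.088, 95% confidence interval −0.43 to −0.061). The change did not pass over all genes (edgeR adjusted p = 0.110, unadjusted p = 0.0123).

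Serpina1d, with tyrosine at P1, stood at 1091, 791, 840, 839 and 878 CPM in WT and at 774, 781, 764, 743 and 701 CPM in Mir483Pat-KO. All 5 Mir483Pat-KO values lay below all 5 WT values, by a margin of 781 against 791 CPM, and without TMM scaling the groups overlapped, with WT replicate 2 at 768 and Mir483Pat-KO replicate 2 at 789 unscaled CPM. Groups failed to overlap for 6.6% of all genes tested. The means were 888 ± 118 and 752 ± 32.2 CPM (SD, n = 5 per group). The log2 fold change was −0.24 (standard error 0.083, 95% confidence interval −0.42 to −0.062, edgeR adjusted p = 0.104, unadjusted p = 0.0111).

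The calls of both genes turned on the tool. With DESeq2 the adjusted p was 0.0452 for Serpina1e and 0.0483 for Serpina1d, whereas limma-voom gave 0.0796 and 0.0970 and called 0 of the 5. Over all alternatives the adjusted p ran from 0.0452 to 0.407 for Serpina1e and from 0.0483 to 0.489 for Serpina1d. Without WT replicate 1 the log2 fold changes were −0.20 and −0.16. Within the lower identification range Serpina1e spanned 7730 to 9613 CPM in 4 WT libraries and stood at 6891 and 7584 CPM in 2 Mir483Pat-KO libraries, and Serpina1d spanned 791 to 1091 CPM against 774 and 781 CPM. The log2 fold change there was −0.20 for each gene. The upper range holds 1 WT library, at 8280 CPM of Serpina1e and 878 CPM of Serpina1d, against 6222 to 7957 and 701 to 764 CPM in 3 Mir483Pat-KO libraries.

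Serpina1a, with methionine at P1, stood at 1077, 959, 857, 859 and 985 CPM in WT and at 894, 1008, 1014, 1025 and 906 CPM in Mir483Pat-KO, so that every Mir483Pat-KO library lay within the WT range. The means were 947 ± 92.7 and 969 ± 63.6 CPM (SD, n = 5 per group). The log2 fold change was 0.033 (standard error 0.078, 95% confidence interval −0.13 to 0.20, edgeR adjusted p = 0.842). The sign turned without WT replicate 3 (−0.013) or WT replicate 4 (−0.0087).

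Serpina1b, the second most abundant member and the other methionine form, stood at 2450, 2073, 1960, 1974 and 2256 CPM in WT and at 2020, 2171, 2070, 2168 and 2045 CPM in Mir483Pat-KO. These values overlapped entirely, and the Mir483Pat-KO libraries varied less, with a coefficient of variation of 3.35% against 9.74%. The log2 fold change was −0.032 (standard error 0.075, 95% confidence interval −0.19 to 0.13, edgeR adjusted p = 0.838), and its sign turned without WT replicate 1 (0.012).

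Serpina1c, the other tyrosine form, was the lowest in CPM, with 646, 668, 540, 536 and 584 CPM in WT and 570, 575, 611, 614 and 542 CPM in Mir483Pat-KO. WT replicates 1 and 2 were the highest, and no Mir483Pat-KO library lay outside the WT range. The log2 fold change was −0.030 (standard error 0.076, 95% confidence interval −0.19 to 0.13, edgeR adjusted p = 0.854), and its sign turned without WT replicate 2 (0.0096).

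Summed, the paralogs stood at 14877, 12504, 12102, 11937 and 12983 CPM in WT and at 11842, 11426, 12416, 10906 and 10416 CPM in Mir483Pat-KO. Mir483Pat-KO replicate 3 lay within the WT range and the other 4 below it. The means were 12881 ± 1187 and 11401 ± 781 CPM (SD, n = 5 per group). Refitted as 1 row, the sum had a log2 fold change of −0.18 (standard error 0.080).

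**Figure D1:**
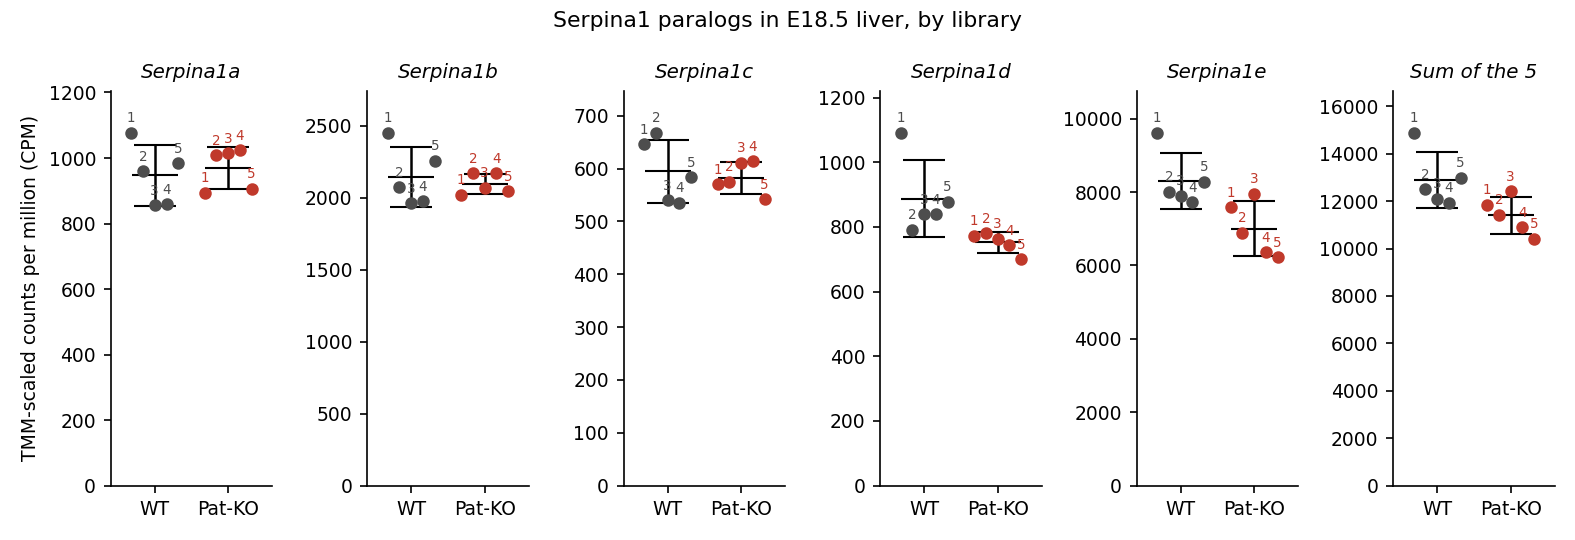
Each point is 1 library, labelled with its replicate number, and the vertical axes give TMM-scaled CPM from 0. The bars mark the mean ± SD of 5 WT and 5 Mir483Pat-KO libraries. Serpina1d and Serpina1e sit lower in most Mir483Pat-KO libraries, and Serpina1a, Serpina1b and Serpina1c overlap.

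In whole liver, fewer hepatocytes and less RNA per hepatocyte cannot be told apart. Summed hepatocyte markers, 8 genes, ranged from 201903 to 223165 CPM over WT libraries and from 183372 to 214989 CPM over Mir483Pat-KO libraries. Of the 8, Cps1 of the urea cycle fell (log2 fold change −0.65, edgeR adjusted p = 0.00407), while Hnf4a (−0.24, adjusted p = 0.0540) and Serpinc1 (−0.18, adjusted p = 0.143) came next and did not pass. Summed erythroid markers, 10 genes matched, ranged from 16112 to 20735 CPM over WT and from 18852 to 26790 CPM over Mir483Pat-KO libraries, and 3 rose, among them the globin gene Hbb-bs (0.54, adjusted p = 0.0120) and Rhag (0.32, adjusted p = 0.0486). Of the 10, 9 were fitted higher and 1 lower, with a median log2 fold change of 0.31. At an unadjusted edgeR p under 0.05 there were 9 of the 10, against 22.2% of all genes tested. Of 10 macrophage markers (832 to 1041 against 734 to 964 CPM), C1qa (−0.29, adjusted p = 0.0389) and Clec4f (−0.46, adjusted p = 0.0416) fell and C1qc (−0.31, adjusted p = 0.0711) did not pass. The macrophage list did not point 1 way, since 4 of the 10 had fitted values above 0, among them Cd5l (0.30, adjusted p = 0.112). The calls of Rhag, C1qa and Clec4f were each lost when any of 6 or more single libraries was left out, and the log2 fold change of Rhag was 0.19 with GC content and length trends removed. Within the lower identification range it was 0.15 for Rhag and 0.23 for Hbb-bs (adjusted p = 0.3205), which lost its call there.

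None of the 31 markers of the other 4 cell types passed with edgeR. At an unadjusted p under 0.05, against 22.2% of all genes tested, there were 5 of 8 mesenchymal markers, 1 of 10 neutrophil, 1 of 8 endothelial and 0 of 5 cholangiocyte markers. The mesenchymal markers had a median log2 fold change of −0.44, with 7 of 8 fitted lower, and 2 mesenchymal markers, Pdgfrb and Reln, passed with DESeq2 and 1, Pdgfrb, with limma-voom. Neutrophil markers summed to 2570 to 3864 CPM against 3264 to 3763 CPM, endothelial markers to 470 to 538 against 423 to 513, mesenchymal markers to 589 to 1107 against 541 to 836, and cholangiocyte markers to 41.6 to 95.8 against 57.2 to 86.0. The smallest adjusted p in these lists belonged to S100a8 (0.162), Pecam1 (0.0884), Pdgfrb (0.0511) and Krt19 (0.272), and other genes near the top were Cdh5, Tek, Reln, Col3a1, Krt7 and Sox9. No matched marker of any cell type was at 0 in all libraries. The part of these shifts in the Serpina1 values was not tested.

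Levels between paralogs were compared per length. Per kilobase of annotated exon, WT liver held 5138 ± 468 CPM of Serpina1e, 887 ± 86.4 of Serpina1b, 637 ± 84.5 of Serpina1d, 517 ± 50.6 of Serpina1a and 437 ± 44.3 of Serpina1c (SD, n = 5). Serpina1e ranked between 8 and 11 by library among all 55141 genes with an annotated length, and the lowest member, Serpina1c, between 63 and 81. Serpina1e exceeded Serpina1b 4.38 to 6.02 times in the 10 libraries, and Serpina1b exceeded Serpina1d 1.30 to 1.69 times. The ranges of Serpina1d and Serpina1a overlapped, as did those of Serpina1a and Serpina1c, although within each of the 10 libraries Serpina1a stood above Serpina1c (1.07 to 1.30 times). Serpina1d stood above Serpina1a in 8 of 10. The 90-base promoter windows of Serpina1b and Serpina1e shown above are the same, but begin at −58 and −110 relative to the annotated starts. They are only a part of each promoter sequence, and what sets the difference in level was not tested.

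The lower part of this order depended on the length used. Per 1000 positions at which a 200-base read pair is unique, a scale added after the data were seen, Serpina1e was the highest again at 7156 CPM in WT, followed by Serpina1b at 1752, Serpina1a at 1429, Serpina1c at 1373 and Serpina1d at 1042. On this scale each of the 4 lower members overlapped the next in range, but Serpina1b stood above Serpina1a (1.11 to 1.25 times) and Serpina1c above Serpina1d (1.17 to 1.66 times) in 10 of 10 libraries. Per kilobase of bases within unique single 50-base windows, Serpina1e stood at 6141, Serpina1c at 1557, Serpina1b at 1543, Serpina1a at 1211 and Serpina1d at 886. Serpina1d thus moved from the third place to the lowest on both scales. Serpina1c was the lowest per exon, the fourth per read pair position and level with Serpina1b per single window.

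**Figure D2:**
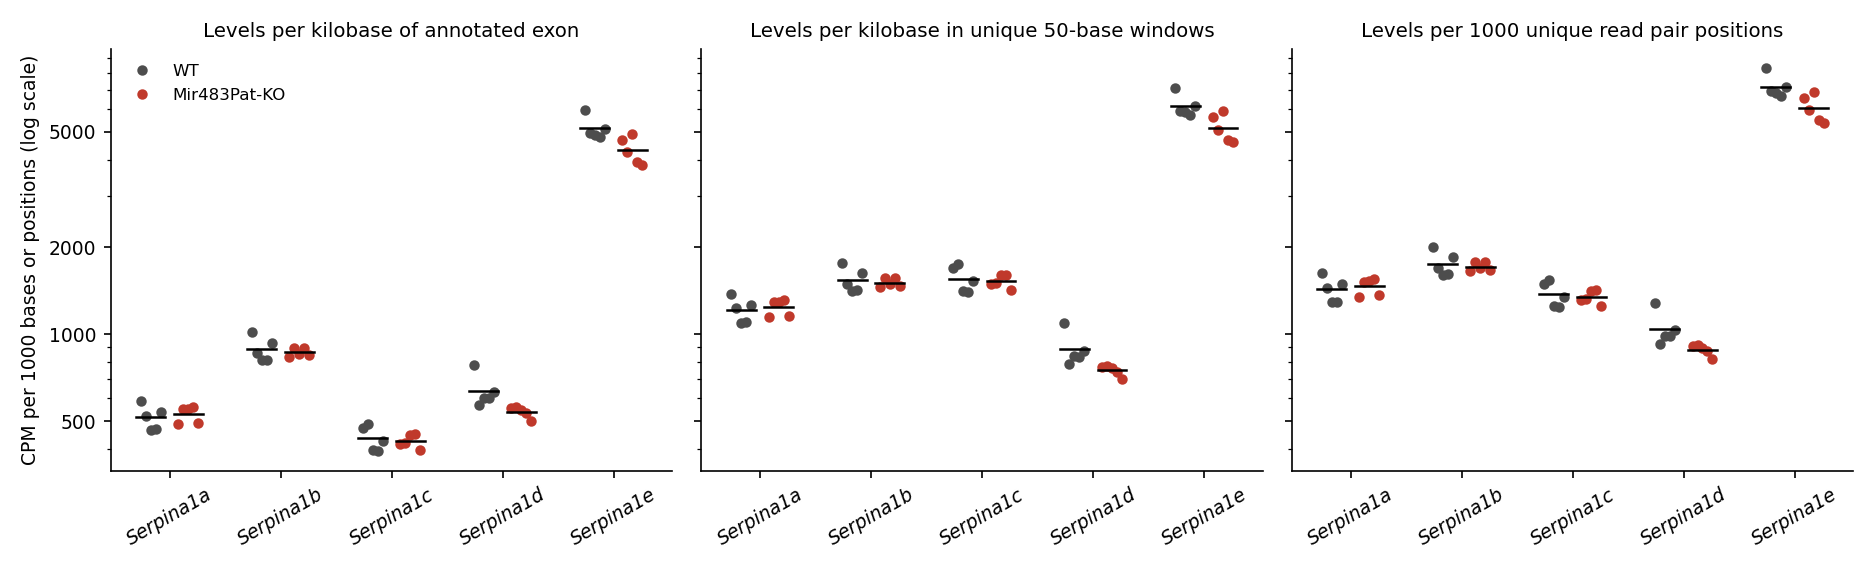
Levels of the 5 paralogs in each library, as CPM per 1000 bases or positions on a log axis, with lines at the group means. The panels divide by annotated exon length (left), by the bases in unique 50-base windows (middle) and by the unique read pair positions (right), and Serpina1e is the highest in all, while the order of the other 4 changes.

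The make-up of the family was compared next, because each member's share of the 5 summed counts does not depend on library size. The mean share of Serpina1e was lower in Mir483Pat-KO and those of Serpina1a and Serpina1b were higher, each by a small margin and with overlapping groups. The p-values of the shares are not adjusted over the 5, so no share is called as changed. Serpina1e made up 64.6%, 64.1%, 65.3%, 64.8% and 63.8% of the sum in WT and 64.04%, 60.3%, 64.08%, 58.3% and 59.7% in Mir483Pat-KO. Mir483Pat-KO replicates 1 and 3 lay within the WT range and replicates 2, 4 and 5 below it. The means were 64.5% ± 0.603 and 61.3% ± 2.64 (SD, n = 5 per group, difference −3.22 percentage points, two-sided exact permutation test, p = 0.0397, not adjusted over the 5 shares).

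Serpina1a made up 7.08% to 7.67% in WT and 7.55%, 8.82%, 8.17%, 9.39% and 8.70% in Mir483Pat-KO, with means of 7.35% ± 0.260 and 8.53% ± 0.698 (difference 1.17 points, exact permutation test, p = 0.0238). Replicate 1 alone of the Mir483Pat-KO libraries fell within the WT range. Serpina1b made up 16.2% to 17.4% in WT and 17.1%, 19.0%, 16.7%, 19.9% and 19.6% in Mir483Pat-KO (difference 1.82 points, exact permutation test, p = 0.0476). For Serpina1b, as for Serpina1e, replicates 1 and 3 lay within the WT range. Serpina1c (4.63% ± 0.404 and 5.12% ± 0.319, difference 0.49 points, exact permutation test, p = 0.0635) and Serpina1d (6.88% ± 0.371 and 6.61% ± 0.282, difference −0.27 points, exact permutation test, p = 0.230) had larger p. Counted per unique read pair position, the shares were 56.1% and 52.6% for Serpina1e (difference −3.48 points, exact permutation test, p = 0.0397), 11.2% and 12.8% for Serpina1a (1.61 points, p = 0.0238), 13.7% and 15.03% for Serpina1b (1.30 points, p = 0.0635) and 10.8% and 11.8% for Serpina1c (0.99 points, p = 0.0873). Per kilobase of unique single windows, Serpina1c made up 13.7% and 14.97% (1.22 points, exact permutation test, p = 0.0873) and Serpina1e 54.2% and 50.6% (−3.52 points, p = 0.0317). The 5 shares sum to 100% in each library, so these tests are not independent, and the smallest p that 5 and 5 libraries allow is 0.00794.

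The spread between libraries exceeded counting error. The 95% Wilson interval of the Serpina1e share was 58.0% to 58.6% in Mir483Pat-KO replicate 4 and 63.8% to 64.3% in replicate 1. Intervals and limits of this kind cover counting error only. The Serpina1e share gave p = 0.0794 without WT replicate 1, 3 or 4 or without Mir483Pat-KO replicate 2, 4 or 5 (exact permutation tests). The Serpina1b share gave p of 0.0794 to 0.0952 without WT replicate 1, 2, 3 or 4 or without Mir483Pat-KO replicate 2, 4 or 5. Within the lower identification range the differences were −2.52 points for Serpina1e, 1.59 for Serpina1b and 0.89 for Serpina1a, where 4 and 2 libraries cannot give a p under 0.0667. Without WT replicate 2, p was 0.0159 for Serpina1c and 0.0476 for Serpina1d (exact permutation tests, not adjusted).

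**Figure D3:**
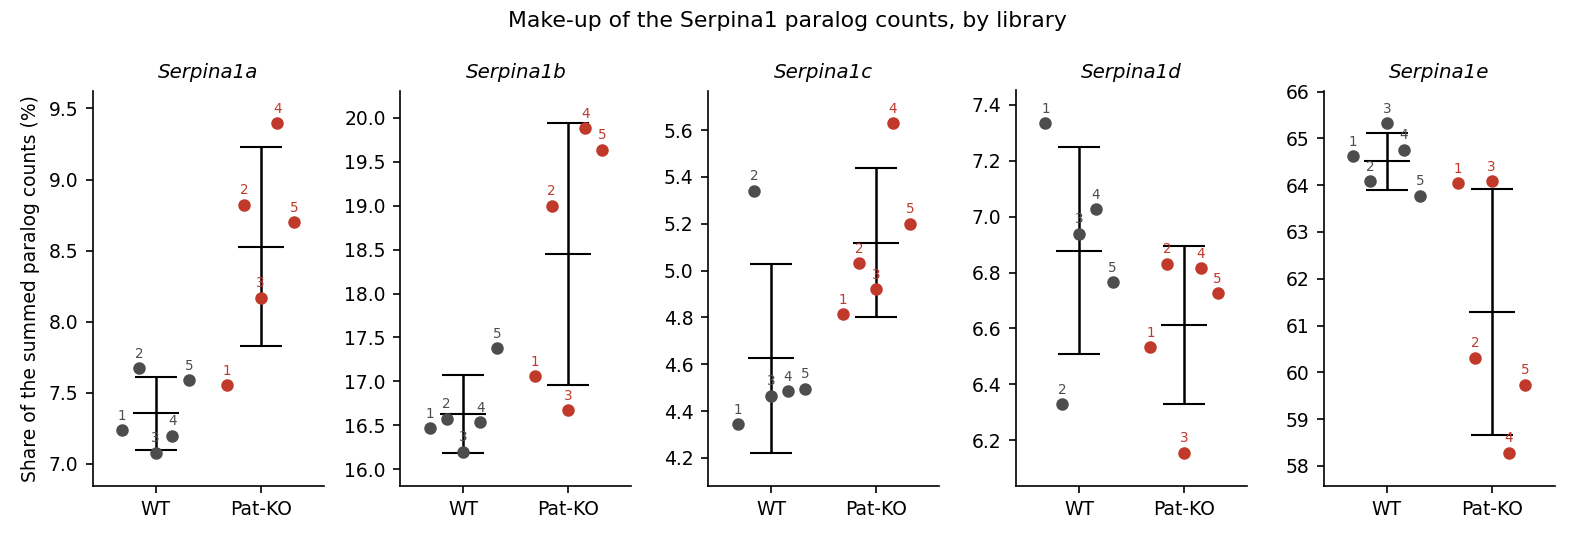
Share of each paralog in the summed counts of the 5, in percent, 1 point per library labelled with its replicate number, with the mean ± SD of each group. The vertical axes do not start at 0 and differ between panels. Mir483Pat-KO replicates 2, 4 and 5 have Serpina1e shares of 58.3% to 60.3%, below the WT libraries at 63.8% to 65.3%.

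As a ratio of counts, Serpina1e exceeded Serpina1a 8.78 ± 0.385 times in WT and 7.25 ± 0.906 times in Mir483Pat-KO, and Serpina1d 9.40 ± 0.477 and 9.30 ± 0.783 times (SD, n = 5 per group). Deviations of the libraries from their group means ran together most for Serpina1a and Serpina1b (Pearson r = 0.90, Spearman rho = 0.89, 10 libraries), and r was 0.84 without the 2 libraries farthest from the median. Serpina1a and Serpina1c had an r of 0.79 (rho 0.78), Serpina1d and Serpina1e 0.74 (rho 0.76), and Serpina1c and Serpina1d the lowest at 0.32 (rho 0.24), which became 0.68 without the 2 libraries farthest from the median. Serpina1b and Serpina1e had an r of 0.45 (rho 0.43), which became 0.048 without the 2 farthest, the lowest of all pairs on that measure. Library depth and composition, and any reads shared between copies, enter each of these values.

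The genes whose log2 CPM ran most like that of the summed paralogs over the 10 libraries, of 14093 genes compared, were Kalrn (r = 0.95), Azgp1 (r = 0.95), Hsd17b6 (r = 0.93), Cyp2a12 (r = 0.93) and Casp1 (r = 0.93). Spearman rho was 0.81 to 0.94 for these 5, r for deviations within groups was 0.87 to 0.94, and r without the 2 farthest libraries was 0.77 to 0.92. Azgp1, a secreted zinc-binding glycoprotein, alone of the 5 passed the genotype test (log2 fold change −0.42, edgeR adjusted p = 0.0214). Cyp2a12, a cytochrome P450 gene, was also the closest gene to Serpina1e alone (r = 0.98, rho 0.89, within groups 0.95). The closest to the other members were Sh3bgrl3 for Serpina1a (r = 0.92), Tagln2 for Serpina1b (r = 0.94), Xrcc4 for Serpina1c (r = 0.92) and Lman2l for Serpina1d (r = 0.94). These are the highest of many correlations and are given as a description.

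Several neighbours of the paralogs passed the test. Of 20 other clade A serpin genes in the chromosome 12 cluster, 12 passed the count filter. Of these, 4 fell and 1 rose, where 5.19% of all genes tested passed. The median log2 fold change was −0.27, against −0.032 for the 5 paralogs and 0.0042 for all genes tested. Serpina6, the corticosteroid-binding globulin gene, which precedes Serpina1f and Serpina1b in map order, rose from 35.7 ± 8.68 to 89.6 ± 27.2 CPM (log2 fold change 1.33, edgeR adjusted p = 0.00306). Serpina11, the next gene beyond Serpina1e, fell from 72.6 ± 7.01 to 56.7 ± 4.69 CPM (−0.36, adjusted p = 0.0192).

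The other 3 that fell belong to the antichymotrypsin-like Serpina3 group. They were Serpina3m (−1.96, edgeR adjusted p = 0.00133), Serpina3k (−1.69, adjusted p = 0.0177, overlapping groups) and Serpina3n (−0.48, adjusted p = 0.0262). Serpina3k no longer passed under the robust fit (adjusted p = 0.104) or without Mir483Pat-KO replicate 4 (0.0563), nor Serpina3n without WT replicate 5, Mir483Pat-KO replicate 2 or Mir483Pat-KO replicate 4 (adjusted p of 0.0565 to 0.0728). Serpina1f, a diverged relative beside the paralogs, had 0 counts in all 10 libraries, which allows at most 0.203 to 0.277 CPM per library with a limit of 3 counts. Within the lower identification range, with 4 WT and 2 Mir483Pat-KO libraries, Serpina6 kept its call and the other 4 lost it. Their log2 fold changes there were −0.39 for Serpina11, −0.50 for Serpina3n, −1.62 for Serpina3m and −1.02 for Serpina3k. The pseudogene Gm8893 had a log2 fold change of −0.36 that did not pass (adjusted p = 0.0986).

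**Figure D4:**
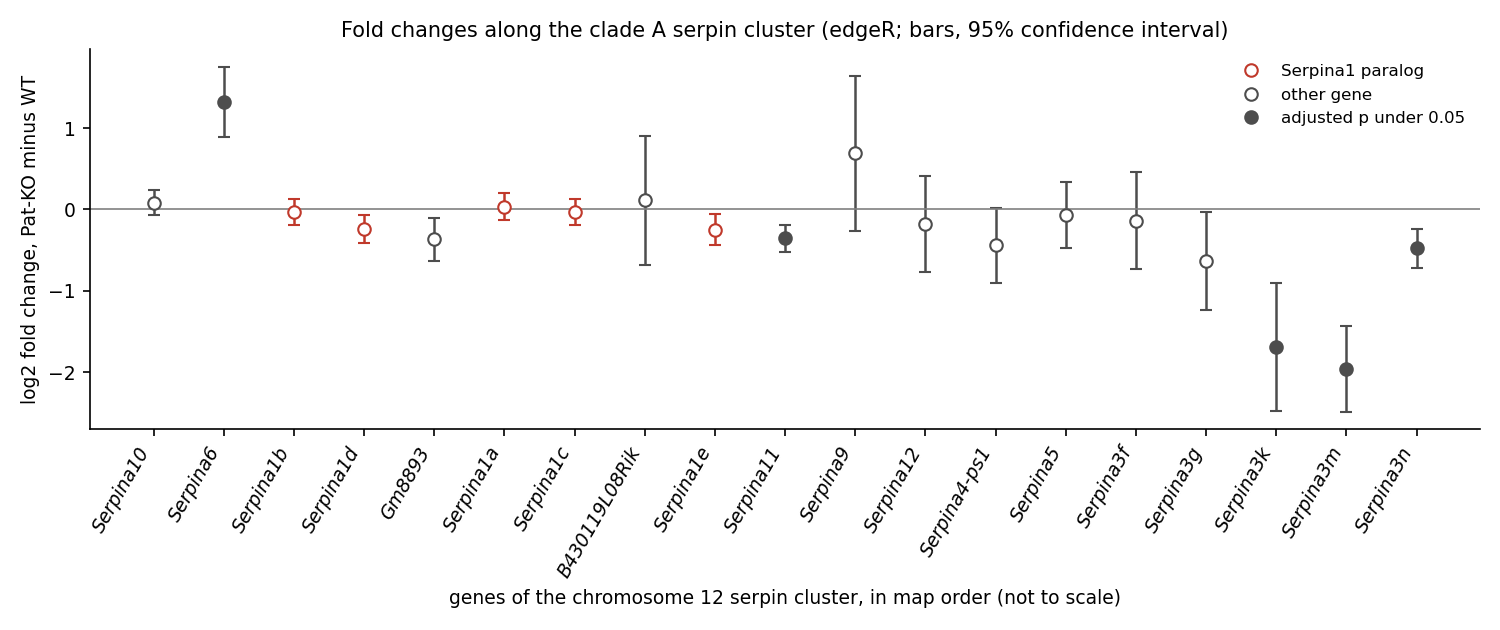
Log2 fold change of Mir483Pat-KO over WT for the tested genes of the clade A serpin cluster, with Gm8893 and B430119L08Rik, in map order and not to scale. Bars are 95% confidence intervals and filled points passed an adjusted p of 0.05. The 5 Serpina1 paralogs, in red, lie between −0.25 and 0.033, while Serpina6 stands at 1.33 and Serpina3m at −1.96.

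No gene passed among other serpins of the liver, nearly all of them secreted. Of 11 such genes, 10 were tested, 0 passed and the median log2 fold change was −0.13. The 3 with the smallest p were Agt, the angiotensinogen gene (−0.24, edgeR adjusted p = 0.0508, and from 0.00444 to 0.372 over the alternatives), Serping1, the C1 inhibitor (−0.26, adjusted p = 0.0930), and Serpinc1, antithrombin (−0.18, adjusted p = 0.143). Of the 10, 5 had an unadjusted edgeR p under 0.05 (22.2% of all genes tested did), the others being Serpinf2, the plasmin inhibitor, and Serpinh1, a collagen chaperone that stays in the cell, while 4 passed with DESeq2 and 1, Agt, with limma-voom.

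Serine proteases held to be inhibited by alpha-1-antitrypsin were measured in the same libraries. Of 7 tested, 1 passed, where 5.19% of all genes tested did. This was Tmprss6, the hepatocyte membrane protease matriptase-2 that holds hepcidin down, which fell from 225 ± 14.1 to 182 ± 13.7 CPM (log2 fold change −0.31, edgeR adjusted p = 0.0217). It did not pass with GC content and length trends removed (log2 fold change −0.18, adjusted p = 0.0893) or without Mir483Pat-KO replicate 2 (0.0520). Elane, neutrophil elastase, had 62.2 ± 8.37 CPM in WT against 55.2 ± 4.97 CPM (−0.17, adjusted p = 0.305), and Prtn3, proteinase 3, had 76.3 ± 10.4 and 68.9 ± 6.57 CPM (−0.15, adjusted p = 0.382).

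Of 25 genes tested for folding, export and degradation of the protein in the endoplasmic reticulum, 1 rose and 0 fell. This is near the 5.19% of all genes tested that passed, and the median log2 fold change was 0.052. The gene that rose was Derl2, a component of the channel that returns misfolded protein to the cytosol for degradation, from 74.5 ± 4.61 to 101 ± 12.4 CPM (0.44, edgeR adjusted p = 0.00815), and it passed in all 20 alternatives. Lman1, the cargo receptor for alpha-1-antitrypsin, had 301 ± 40.9 and 322 ± 35.7 CPM (0.095, adjusted p = 0.596). Erlec1, a lectin of the degradation pathway (0.28, adjusted p = 0.102), and Pdia3, a disulphide isomerase (0.16, adjusted p = 0.246), did not pass.

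Of 7 genes tested for the uptake of serpin-protease complexes and other glycoproteins, 3 fell and 0 rose, where 5.19% of all genes tested passed. The median log2 fold change was −0.35. The 3 were Asgr1 and Asgr2, the subunits of the asialoglycoprotein receptor (−0.62, edgeR adjusted p = 0.00133, and −0.35, adjusted p = 0.0103), and Lrp1, the main receptor for the complexes (−0.43, adjusted p = 0.0310). Lrp1 fell from 425 ± 50.4 to 315 ± 51.1 CPM, and did not pass without any 1 of WT replicates 3, 4 and 5 or Mir483Pat-KO replicates 2, 3 and 4 (adjusted p of 0.0517 to 0.0799). The asialoglycoprotein receptor takes up glycoproteins that have lost sialic acid.

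Transcription factors of the hepatocyte alpha-1-antitrypsin promoter were counted as well. Of 14 tested, 1 fell, Foxa2 (17.7 ± 2.01 to 12.6 ± 1.81 CPM, log2 fold change −0.49, edgeR adjusted p = 0.0201), and the median was −0.11. A count of 1 of 14 is near the 5.19% of all genes tested that passed. At an unadjusted edgeR p under 0.05 there were 6 of the 14, against 22.2% of all genes tested. The product of Foxa2 is one of the FOXA factors, and Foxa2 did not pass with GC content and length trends removed (adjusted p = 0.0761). Hnf4a had 382 ± 26.0 and 324 ± 17.1 CPM (−0.24, adjusted p = 0.0540, and from 0.00630 to 0.336 over the alternatives), and Foxa3 −0.25 (adjusted p = 0.0966).

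Interleukin-6 and acute-phase signalling drives human alpha-1-antitrypsin in inflammation, and the response of the mouse paralogs to it was not tested here. Of 11 genes tested, 2 rose, the kinase gene Jak2 (log2 fold change 0.30, edgeR adjusted p = 0.0265) and the feedback inhibitor gene Socs3 (0.42, adjusted p = 0.0379), and 0 fell, with a median of −0.15. Of all genes tested, 5.19% passed. At an unadjusted edgeR p under 0.05 there were 5 of the 11, against 22.2% of all genes tested. Stat3, the transcription factor of the pathway, had −0.22 (adjusted p = 0.0547). Jak2 and Socs3 each lost the call with several single libraries left out, with adjusted p up to 0.0732 and 0.0877. Within the lower identification range Socs3 stood at 0.18 on the log2 scale (adjusted p = 0.560) and Jak2 at 0.30 (adjusted p = 0.207).

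Among 25 other abundant secreted proteins of hepatocytes, 4 fell and 0 rose, where 5.19% of all genes tested passed. The median log2 fold change was −0.15, with 22 of the 25 fitted lower and 3 higher. At an unadjusted edgeR p under 0.05 there were 12 of the 25, against 22.2% of all genes tested. The 3 with the smallest p were Rbp4, the retinol carrier (−0.41, edgeR adjusted p = 0.00580), and the apolipoprotein genes Apoa1 (−0.30, adjusted p = 0.0262) and Apoe (−0.33, adjusted p = 0.0350). The fourth, Hp (haptoglobin), had −0.47 (adjusted p = 0.0377) and is named to complete the count. Apoa1 and Apoe did not pass with GC content and length trends removed (log2 fold changes −0.24 and −0.21, adjusted p = 0.0777 and 0.0982) or without any of several single libraries, with adjusted p up to 0.0557 and 0.0918. Against the median of −0.15, Serpina1d stood at −0.24 and Serpina1e at −0.25, and the other paralogs between −0.032 and 0.033. Of the genes that passed in the last 6 lists, Derl2 alone kept its call within the lower identification range, Hp included among those that lost it (adjusted p = 0.2825).

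**Figure D5:**
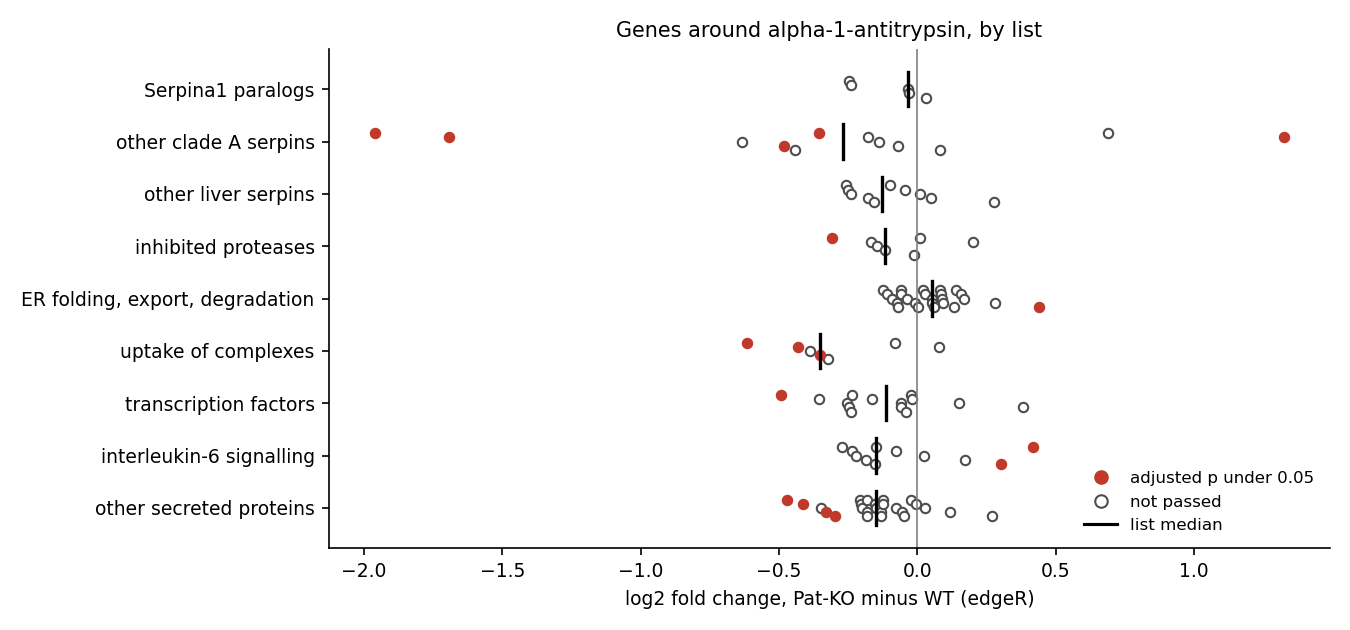
Log2 fold changes of the tested genes of each list, 1 point per gene, with the list median as a black line. Filled points passed an adjusted p of 0.05. The Serpina1 paralogs have no filled point, and the lists of uptake receptors and other clade A serpins have medians of −0.35 and −0.27.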

How the data were processed

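Liver RNA of 5 WT and 5 Mir483Pat-KO fetuses was analysed. The authors made polyA libraries, aligned paired reads to GRCm38 and counted them with STAR, and deposited unnormalized read counts for Ensembl genes. The paper names an Ensembl annotation release for that count, but the settings of the count are not given in the sources used here. Positions, exons and coding sequences came from GENCODE M21 (GRCm38), which was not matched to the release named for the count. Of 55401 genes, 55141 matched a symbol. Each library came from 1 fetus.

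Counts were tested in R 4.3.3 with edgeR 4.0.16 (filterByExpr defaults, TMM, quasi-likelihood F-test, no covariates), with Benjamini-Hochberg adjustment over 14098 genes. CPM were scaled by TMM. Log2 CPM for correlations used a prior count of 2. The sum of the paralogs was fitted as 1 row in place of 5. Shares were compared by two-sided exact permutation tests over 252 arrangements. Unique windows were 50 bases long and were compared with all annotated transcripts, singly and as pairs of a 200-base fragment, a length assumed here.

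The members, lists and tests were chosen with earlier results of these data known. All members were named, of the cluster the genes that passed plus Serpina6 and Serpina1f, and of each other list up to 3 genes with the smallest p plus Elane, Lrp1, Hnf4a and Lman1. Some genes that this rule would name are not reported here. Likeness named the 5 genes with the highest r with the sum and 1 gene per member. Serpinf2, Serpinh1, Hp, Cd5l, Afp and Alb were added after their values were seen.

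Alternatives were RLE scaling, DESeq2 1.42.0, limma-voom (limma 3.58.1), the robust fit, other filters, the replicate block, the identification range as covariate or alone, GC content and length offsets, and each library left out. On simulated data with 200 genes changed 2-fold, edgeR recovered 97.5%, and 4.4% of genes that passed were unchanged. Figures used Python 3.11.15 and matplotlib 3.10.9.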

Additional observations from a re-analysis of the deposited data

Results flagged for a closer look

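In each group of 5 libraries, a library was singled out when its gap to the nearest other as a part of the group's range was above Dixon's 95% critical value. Of 108 groups examined, 6 had such a library, where chance alone marks about 1 in 20. Among the paralogs this was the Serpina1c share of the 5, at 5.34% in WT replicate 2 against 4.496% in the next WT library. The same library was high for Lman1 (372 CPM, next 300.1) and Pdia3 (627 CPM, next 535). Serpina6 was low in WT replicate 1 (21.0 CPM, next 36.2), and Serpina3k was high in Mir483Pat-KO replicate 1 (187 CPM, next 75.4). In WT replicate 5, C1qa was high (105 CPM, next 90.9).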

How the results depend on the processing

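Serpina1d and Serpina1e kept their direction in all 20 alternatives, from −0.28 to −0.16 and from −0.31 to −0.20 on the log2 scale and passed with DESeq2 alone (−0.24 and −0.25). Serpina1a ran from −0.013 (without WT replicate 3, with −0.0087 without WT replicate 4) to 0.075, Serpina1b from −0.075 to 0.012 and Serpina1c from −0.075 to 0.0096 with single libraries left out, and none passed anywhere. The sum ran from −0.22 to −0.13. Genes that passed numbered 389 lower and 342 higher, against 612 and 555 with DESeq2, 625 and 633 without the count filter, 596 and 742 with the replicate block, 20 and 3 in the lower identification range (fewer libraries), 646 higher with the range as covariate, and 192 to 475 and 87 to 389 with single libraries left out. Equal replicate numbers had correlations of −0.050 to 0.26 between groups and were treated as unpaired, and the replicate block changed no call of the paralogs (adjusted p = 0.0795 for Serpina1d and 0.0745 for Serpina1e). Within the lower range the differences in share were 0.89 points for Serpina1a, 1.59 for Serpina1b and −2.52 for Serpina1e, but 4 and 2 libraries allow no p under 0.0667. Per uniquely alignable kilobase the Serpina1b share differed by 1.23 points (exact permutation test, p = 0.0714), and per unique read pair position, an alternative chosen after seeing the data, by 1.30 points (p = 0.0635, exact permutation test). With single libraries left out, the differences ran from 0.96 to 1.42 points for Serpina1a, 1.46 to 2.26 for Serpina1b, 0.37 to 0.67 for Serpina1c, −0.40 to −0.15 for Serpina1d and −3.92 to −2.47 for Serpina1e. WT levels per kilobase of unique windows were 1211, 1543, 1557, 886 and 6141 for Serpina1a to Serpina1e, and per 1000 unique read pair positions 1429, 1752, 1373, 1042 and 7156. For 43 other named genes, 735 of 860 alternative values kept the call, 80 lost and 45 gained it, and 0 changed sign. Where not stated, the cause was not tested.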
